A study of Mus musculus with 7 samples.

Results

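Collagens and extracellular matrix genes were followed as a set of 43 genes chosen by symbol: 13 collagen chains, the glycoproteins, laminins and proteoglycans that assemble with them, and the enzymes, inhibitors and chaperone that process them. Probe sets were taken by their single gene symbol, and a gene with several was represented by the probe set with the highest mean over the 7 arrays. A probe set was found for 42 of the 43 genes, among 12393 genes with a single symbol on the array. These 42 genes had 78 probe sets, and 26 of them had more than 1. Fbn1, which encodes the microfibril protein fibrillin-1, had no probe set under its symbol and has no value here.

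The study asked what the ligation of ICOS, a costimulatory receptor of activated T cells, by its ligand ICOSL contributes to acute graft-versus-host disease, in which donor T cells attack the tissues of a transplant recipient. All recipients were female C57BL/6 (B6) mice, 9 to 12 weeks old, that received 10 Gy of irradiation and an infusion of splenocytes 4 to 6 h later, with 4 mice per group in an experiment. In the anti-ICOSL day 0 group (2 arrays) the donors were C3H/HeN mice and an antibody against ICOSL was injected from day 0, 500 µg at first and 200 µg every other day. In the anti-ICOSL day 3 group (2 arrays) the same donors and doses were used and injections began on day 3. The isotype group (2 arrays) had C3H/HeN donor cells and control rat IgG, whose first day is not stated for these arrays, so antibody and injection timing cannot be told apart against it. The syngeneic group (1 array) had B6 donor cells and no antibody is stated, so donor strain, antibody injection and the allogeneic response cannot be told apart against it. Splenocytes were collected on day 4, 1 day after the first injection of the day 3 group. RNA of allogeneic mice was combined before hybridisation to 2 arrays, so every p-value below measures the spread between arrays, which may be technical.

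The extracellular matrix is the scaffold outside cells. Fibrillar collagens give it tensile strength, type IV collagen and laminins form the sheets under endothelium, and fibronectin, the fibulins and small proteoglycans join these networks to each other and to integrins on cells. In the spleen it is known for the reticular fibres and vessel walls made by fibroblastic reticular cells, pericytes and endothelium, and macrophages also make fibronectin and matrix-degrading enzymes.

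The values are linear MAS5 signals, 1 intensity for each probe set, and each array had been scaled to a common trimmed mean (500.18 to 500.19 signal units over the 7 arrays). Array medians were 145.4 to 174.5 signal units. The T cell marker list had 12 of 12 genes, and the macrophage list 16 of 18, above a background line of 99.7 signal units on all 7 arrays, so defining markers of these cells were present under the label splenocytes. That line is the 40th percentile of all signals. None of 189 values from 27 bacterial control probe sets lay above it, and their median was 11.8 signal units. The syngeneic array stood apart: the summed signal of the 18 macrophage markers was 18787 to 19056 on the day 0 arrays, 15406 to 16619 on the day 3 arrays, 11269 to 11919 on the isotype arrays, against 92969 on the syngeneic array. RNA quality, read as the 3′ signal of Gapdh over its 5′ signal, was 0.794 to 0.821 in the day 0 group, 0.838 to 0.865 in the day 3 group and 0.767 to 0.784 in the isotype group, against 0.957 for the syngeneic array. The same ratio of Actb was 0.967 to 1.02 on the 6 allogeneic arrays, against 1.03 on the syngeneic array.

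Most of the matrix genes lay at or below background in these splenocytes. Only 6 of 42 (14.3%) were above the line on all 7 arrays, against 53.4% of all genes with a single symbol: Fn1 (fibronectin), Hspg2 (perlecan, the heparan sulfate proteoglycan of basement membranes), Timp2 (an inhibitor of matrix metalloproteinases), and the collagen chains Col5a1, Col6a2 and Col6a3. A further 22 were above it on some arrays. The other 14 (33.3%, against 21.9% of all genes) were above it on none: Col3a1, Col5a2, Sparc, Sparcl1, Mgp, Lama2, Lama4, Lamb1, Lamb2, Nid1, Nid2, Postn, Tnc and Ogn. They include the type III collagen of reticular fibres (Col3a1), both nidogens that tie laminin to type IV collagen, and the matricellular proteins periostin (Postn) and tenascin-C (Tnc). A signal below the line does not show that a transcript was absent.

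**Figure D1:**
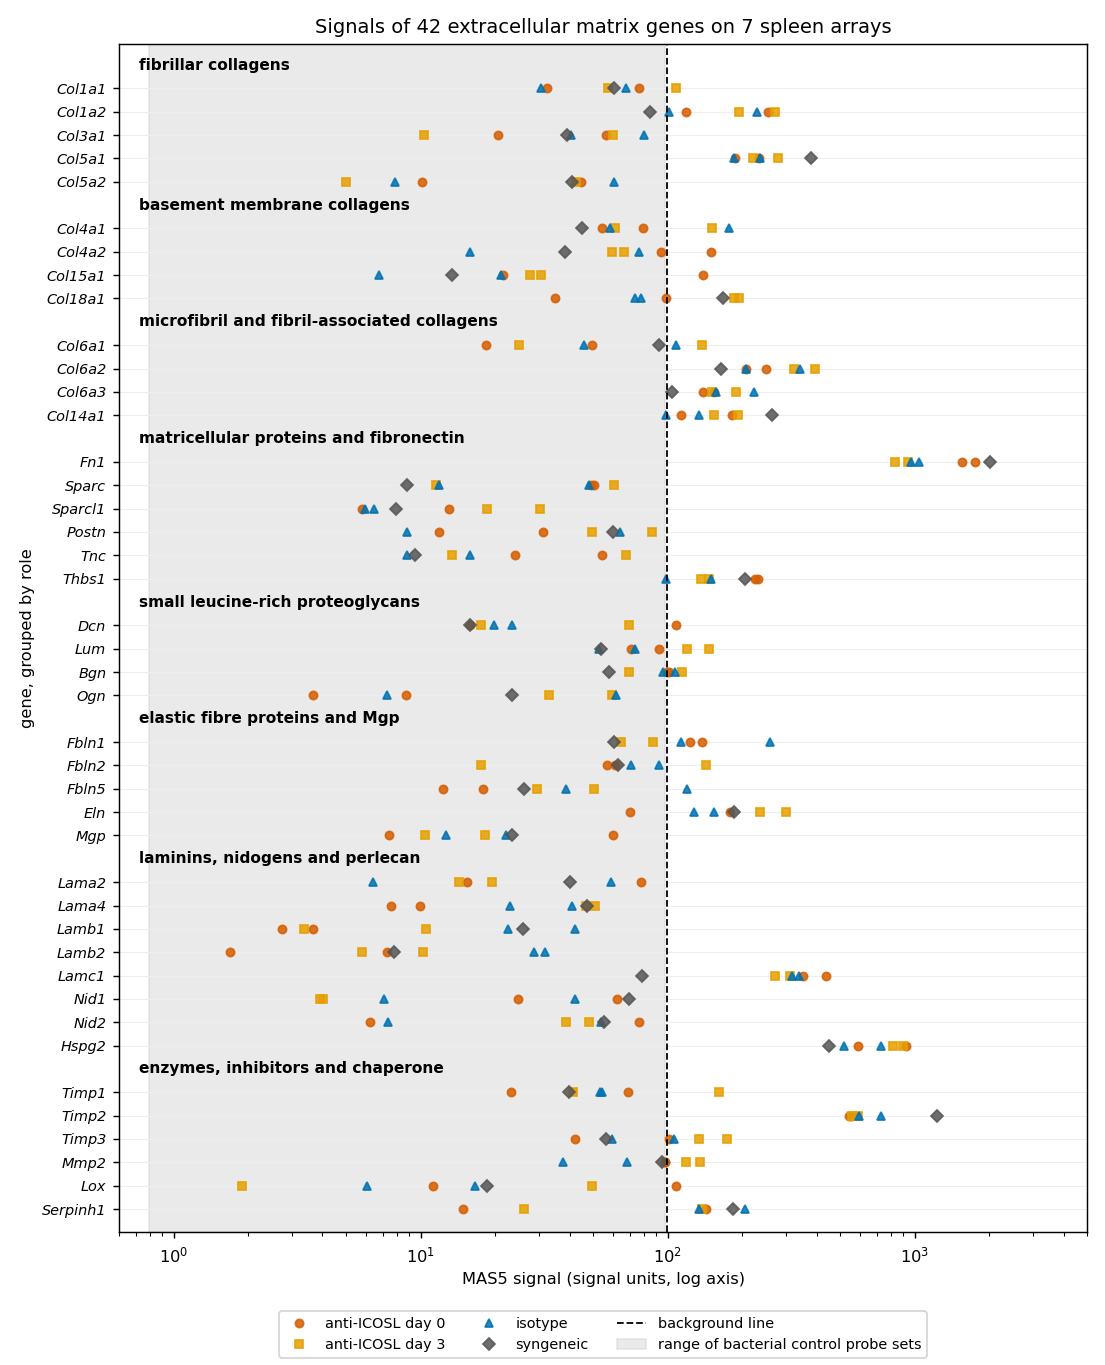
MAS5 signal (signal units, log axis) of each of the 42 genes on each of the 7 arrays, 1 point per array, grouped by role. The dashed line is the background line of 99.7 and the shaded band spans the bacterial control probe sets; 6 genes have every point to the right of the line and 14 have none there.

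Other gene lists varied on this measure, which 53.4% of all genes with a single symbol met. Of other collagens and laminins, 1 of 24 genes was above the line on all arrays. Markers of smooth muscle and pericytes had 1 of 14, endothelium 2 of 22, mesothelium 0 of 7, and fibroblasts and reticular stroma 7 of 23. Genes that receive matrix signals were seen more often than these lists, with 12 of 20 matrix receptors (60%) above the line throughout. The transforming growth factor beta (TGF-beta) list had 10 of 22 (45.5%). These 2 shares lie on either side of the 53.4% of all genes. Enzymes of collagen processing and matrix remodelling had 7 of 46. In bulk RNA, fewer cells of a type and less RNA per cell cannot be told apart.

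**Figure D2:**
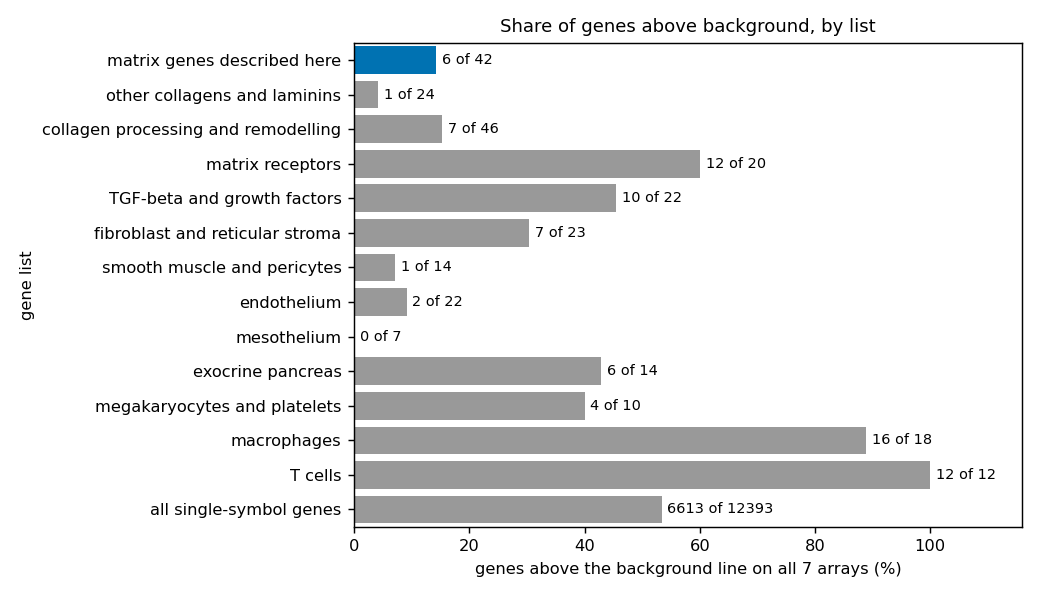
Percentage of the genes of each list that lay above the background line on all 7 arrays, with the count beside each bar. The matrix genes described here reach 14.3% (6 of 42), all genes with a single symbol 53.4%.

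The scatter between the 2 arrays of a group followed the signal. For the 6 genes above the line on all arrays, the median ratio of the higher to the lower array was 1.17 in the day 0 group, 1.17 in the day 3 group and 1.34 in the isotype group, and none of the 6 reached 2-fold in any group. For the 14 genes above it on no array the median ratio was 2.57 in the day 0 group, 1.75 in the day 3 group and 3.02 in the isotype group, and 11, 5 and 7 of the 14 genes were over 2-fold there. All genes with a single symbol had medians between 1.23 and 1.30. The number of matrix genes above the line was 16 and 14 on the day 0 arrays, 17 and 20 on the day 3 arrays, 12 and 17 on the isotype arrays, against 11 on the syngeneic array, out of 42. Arrays of 1 group differed by up to 5 genes in this count.

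A gene was tested where any group mean reached the line, which held for 21 of the 42 genes, within 15372 tested probe sets. Of these 21, 9 reached it in all 4 groups. Another 5 reached it in 1 group alone: Col4a2 in the day 0 group and Lum, Timp1, Timp3 and Mmp2 in the day 3 group. A gene that entered through only some groups had to be higher there than in the rest. Counts over the 21 are therefore not read as support for any direction. Lamc1, Col1a2, Bgn, Fbln1 and Col4a1 entered through allogeneic groups alone. Changes are given on the log2(signal + 50) scale with their standard error (SE), which understates the change of low signals, and an adjusted p under 0.05 was called.

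Against the syngeneic array, the allogeneic arrays had more transcript of the laminin chain gene Lamc1 and less of Fn1 and Timp2. No other matrix gene passed the test by the probe set that represents it. Other probe sets of Col6a2 and Timp2 that passed are given below. Between isotype and syngeneic arrays, 1 gene rose (Lamc1) and 1 fell (Fn1), beside 2.49% of all tested probe sets that rose, 4.12% that fell and 6.62% in either direction. Between all 6 allogeneic arrays and the syngeneic array, 1 rose (Lamc1) and 2 fell (Fn1 and Timp2), beside 3.98% that rose, 5.76% that fell and 9.74% in either direction. Both comparisons rest on the same single syngeneic array, which was assumed to vary like the other groups. The 42 genes had a median change of 0.025 for isotype and 0.050 for all allogeneic arrays on the log2 scale, beside 0.030 and 0.062 over all genes. All 6 allogeneic arrays were above the syngeneic array for 8 of the 21 tested genes and below it for 4, beside 26.0% and 26.4% of all tested probe sets. Lamc1, Col1a2, Bgn, Fbln1 and Col4a1 are among the 8 and had entered the test through allogeneic groups alone.

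**Figure D3:**
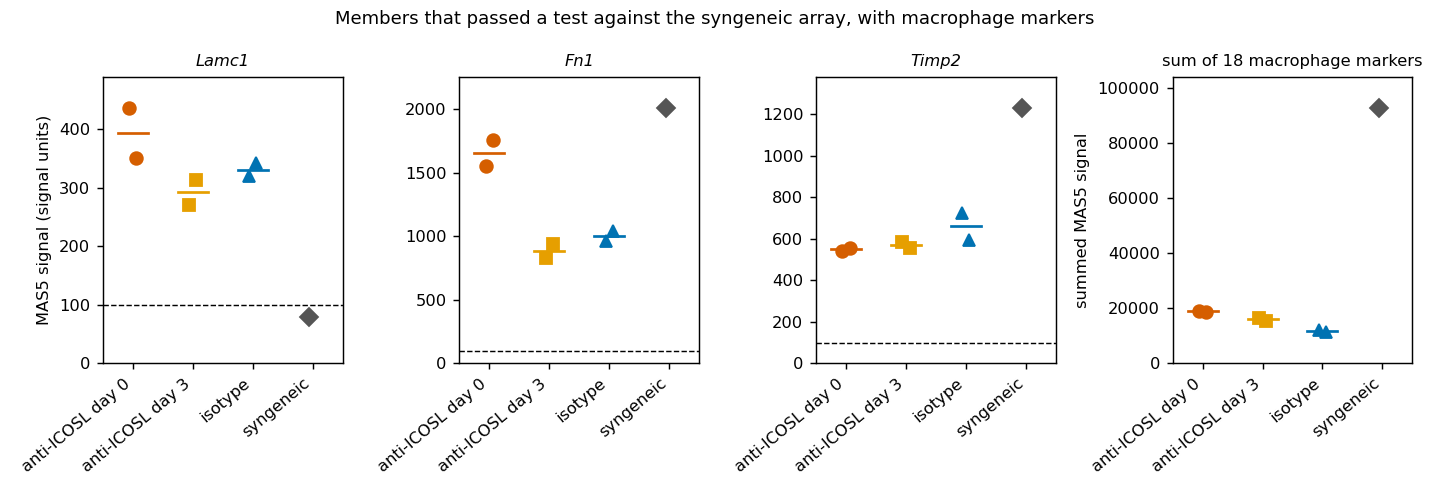
MAS5 signal of Lamc1, Fn1 and Timp2, and the summed signal of 18 macrophage markers, on each array (points) with the mean of each group of 2 arrays (bars) and the background line (dashed, in the panels of single genes). Lamc1 is above the line on all 6 allogeneic arrays and below it on the syngeneic array; Fn1, Timp2 and the macrophage sum are highest on the syngeneic array.

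Lamc1 encodes the gamma-1 chain, the partner that most laminin trimers share. Its signal was 436 and 351 on the day 0 arrays, 271 and 313 on the day 3 arrays, 320 and 341 on the isotype arrays, against 78.7 on the syngeneic array. Every allogeneic array was above the syngeneic one. Lamc1 entered the test through the allogeneic groups alone, so this order is not read as support. The change was 1.56 ± 0.22 (SE) for isotype against syngeneic (adjusted p = 0.0130) and 1.58 ± 0.19 for all allogeneic arrays (adjusted p = 0.00660). Since the syngeneic signal lay below the background line, the rise is a bound: the isotype mean of 330 ± 15.2 (SD, n = 2) was at least 3.31-fold higher than the syngeneic signal. The second probe set of Lamc1 read 28.7 to 118 on the allogeneic arrays and 11.5 on the syngeneic array, in the same direction but mostly below the line. The isotype call was lost when only the 2 compared groups were fitted (adjusted p = 0.0591) and without isotype replicate 2 (adjusted p = 0.0560); the call over all allogeneic arrays held in each of 16 alternatives.

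A laminin trimer needs an alpha and a beta chain beside gamma-1, and 4 genes of such chains were not well above background. Lama2 read 6.43 to 78.0 over the 7 arrays, Lama4 7.54 to 50.5, Lamb1 2.74 to 42.1 and Lamb2 1.69 to 31.9 signal units. None of these 4 genes was above the line on any array, so none was tested. Another alpha chain gene, Lama5, which is in the list of other collagens and laminins, was above the line on all arrays, with 113 and 146 on the day 0 arrays, 136 and 407 on the day 3 arrays, 152 and 213 on the isotype arrays, against 118 on the syngeneic array. Its allogeneic arrays overlapped the syngeneic one, and its change of 0.44 over all of them did not pass (adjusted p = 0.580). The basement membrane partners Nid1 (3.92 to 69.8) and Nid2 (6.25 to 76.8) were also below it throughout. Hspg2 was above it on all arrays, with 591 and 922 signal units on the day 0 arrays, 814 and 899 on the day 3 arrays, 731 and 518 on the isotype arrays, against 450.3 on the syngeneic array. All 6 allogeneic arrays were above the syngeneic one, but the change of 0.64 ± 0.28 over all allogeneic arrays did not pass (adjusted p = 0.214), nor did that of 0.41 ± 0.32 for isotype (adjusted p = 0.507).

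Fn1 encodes fibronectin, a glycoprotein that binds integrins, collagen and fibrin. Its signal was 1553 and 1759 on the day 0 arrays, 830 and 942 on the day 3 arrays, 961 and 1041 on the isotype arrays, against 2012 on the syngeneic array. The day 0 arrays were nearest to the syngeneic array, and the day 3 and isotype arrays lay together below them. The change was -0.97 ± 0.21 for isotype against syngeneic (adjusted p = 0.0453) and -0.80 ± 0.18 for all allogeneic arrays (adjusted p = 0.0458). Both calls are at the edge of the threshold: the isotype call was lost in 12 of 17 alternatives, among them each left-out array, and the allogeneic call in 11 of 16. The second probe set of Fn1 was below the line on all arrays (8.91 to 72.8 on the allogeneic arrays and 3.91 on the syngeneic array), and with the mean of both probe sets the isotype change was -0.20 (adjusted p = 0.681). The summed signal of 18 macrophage markers was also lower on every allogeneic array, and 17 of them fell in both comparisons; the part of this in the Fn1 signal was not tested.

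Timp2 encodes a secreted inhibitor of metalloproteinases that also takes part in the activation of the gelatinase MMP2. It read 540.4 and 558 signal units on the day 0 arrays, 587 and 557 on the day 3 arrays, 727 and 594 on the isotype arrays, against 1232 on the syngeneic array. All 6 allogeneic arrays were below the syngeneic array and close to each other. The change was -1.00 ± 0.18 over all allogeneic arrays (adjusted p = 0.0240) and -0.86 ± 0.21 for isotype alone (adjusted p = 0.0659), which did not pass. The allogeneic call was lost in 6 of 16 alternatives: without a filter, with the replicate block, and without either array of the day 0 or the day 3 group, with an adjusted p of up to 0.0602.

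Timp2 had the most probe sets of the 42 genes, 6, and they allow its fall to be read more than once on the same RNA. All 5 that were above the line on at least 1 array were lower on each of the 6 allogeneic arrays than on the syngeneic array, and 3 of the 6 fell in the allogeneic comparison. Beside the probe set above (1460287_at), 1454677_at fell by 1.96 on the log2 scale (adjusted p = 0.0423) and 1450040_at by 1.25 (adjusted p = 0.0141). Both of these also fell in the isotype comparison, by 2.28 (adjusted p = 0.0496) and 1.18 (adjusted p = 0.0311). The allogeneic signals of 1450040_at lay between 27.1 and 45.7, below the line, against 154 on the syngeneic array, so this probe set was at least 1.55-fold lower. It entered both the count of 5 and the test through the syngeneic array alone. Its direction was therefore fixed by that choice and is not read as support. Of the others, 1433662_s_at changed by -1.01 (adjusted p = 0.0579) and 1420924_at by -0.65 (adjusted p = 0.136). The sixth, 1437081_at, was below the line on all arrays. Probe sets of 1 gene share the RNA of each array and are not replicates.

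**Figure D4:**
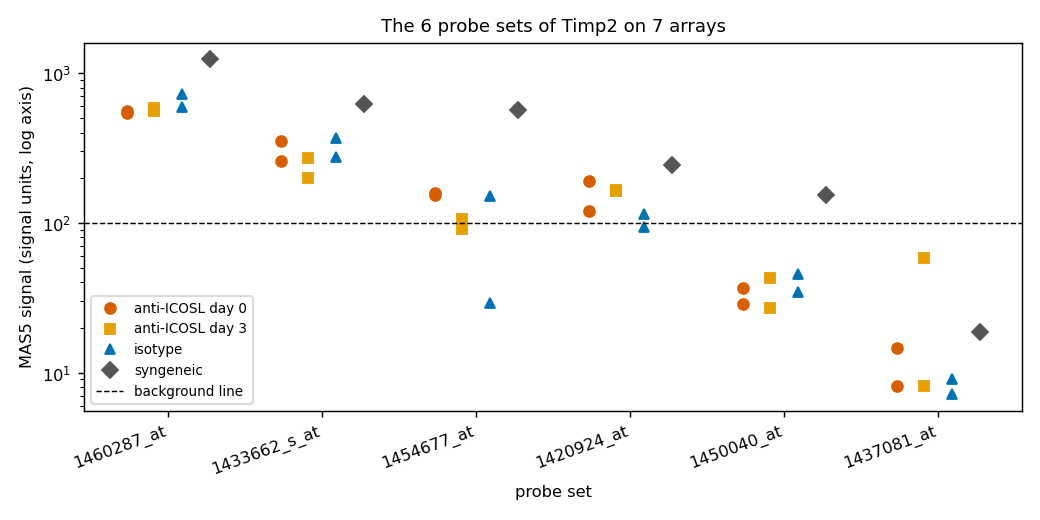
MAS5 signal (log axis) of the 6 probe sets of Timp2 on the 7 arrays, with the background line dashed. In 5 of the 6 probe sets the syngeneic point is above every allogeneic point.

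The promoter window of Timp2 is shown because it is the called gene for which RefSeq gave one; windows of Lamc1 and Fn1 were not used here. It spans 250 bases before to 50 after the annotated start, chr11:118355362-118355661 on the minus strand (GRCm38.p6), and is printed 5′ to 3′ with the matches to the GC box GGGCGG and the CCAAT box in capitals:
Timp2: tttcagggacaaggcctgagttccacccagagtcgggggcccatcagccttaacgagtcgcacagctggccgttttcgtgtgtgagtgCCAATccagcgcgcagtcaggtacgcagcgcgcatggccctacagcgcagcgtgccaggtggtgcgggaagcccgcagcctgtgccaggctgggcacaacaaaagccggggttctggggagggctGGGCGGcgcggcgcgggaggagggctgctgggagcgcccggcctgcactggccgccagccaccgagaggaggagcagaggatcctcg
The window holds 68.7% G and C, 1 GC box, 1 CCAAT box and no TATAAA on either strand. Over 32544 promoter windows of the same length, 35.9% hold a GC box, 37.4% a CCAAT box and 13.6% TATAAA. Windows were found for 28 of the 43 genes (34 windows), of which 22 hold a GC box, 10 a CCAAT box and 5 TATAAA. A match describes letters and is not a binding site.

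The fibrillar collagens were low apart from Col5a1 and Col1a2. Col5a1, the chain of type V collagen that sets the width of type I fibrils, read 233 and 187 on the day 0 arrays, 222 and 278 on the day 3 arrays, 236 and 185 on the isotype arrays, against 380.0 on the syngeneic array. All 3 of its probe sets were lower on each of the 6 allogeneic arrays than on the syngeneic one. This order held in 26.4% of all tested probe sets. The Col5a1 probe set 1416741_at was below the line on all arrays and was not tested. By the probe set that represents Col5a1, the changes of -0.73 ± 0.25 for isotype (adjusted p = 0.143) and -0.66 ± 0.22 for all allogeneic arrays (adjusted p = 0.115) did not pass. Col1a2, the second chain of type I collagen, read 255 and 118 on the day 0 arrays, 271 and 193 on the day 3 arrays, 101 and 229 on the isotype arrays, against 84.5 on the syngeneic array. Its 6 allogeneic arrays were higher, with a spread within groups as wide as the difference (0.81 ± 0.42, adjusted p = 0.285). The second probe set of Col1a2, below the line throughout, did not share this order (3.98 to 67.2 on the allogeneic arrays, 29.3 on the syngeneic array). The partner chain gene Col1a1 passed the line on 1 array, with 32.4 and 76.5 on the day 0 arrays, 57.5 and 108 on the day 3 arrays, 30.5 and 67.9 on the isotype arrays, against 60.3 on the syngeneic array. Col3a1 (10.3 to 80.4) and Col5a2 (4.99 to 60.5) never passed it. None of the 5 fibrillar collagen genes passed a test as reported; with the mean of a gene's probe sets, Col5a1 fell by 0.82 over all allogeneic arrays (adjusted p = 0.0278).

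Type VI collagen forms beaded microfibrils around cells from 3 chains, and 2 of their genes were above the line throughout. Col6a2 read 251 and 207 on the day 0 arrays, 325 and 393 on the day 3 arrays, 207 and 343 on the isotype arrays, against 164 on the syngeneic array. Col6a3 read 154 and 139 on the day 0 arrays, 151 and 189 on the day 3 arrays, 156 and 224 on the isotype arrays, against 104 on the syngeneic array. Both were higher on each allogeneic array than on the syngeneic one, but neither passed: Col6a2 changed by 0.62 ± 0.27 (adjusted p = 0.201) and Col6a3 by 0.50 ± 0.22 (adjusted p = 0.214) over all allogeneic arrays. The second probe set of Col6a2 did pass, with 129 and 43.5 on the day 0 arrays, 177 and 149.9 on the day 3 arrays, 164 and 187 on the isotype arrays, against 14.0 on the syngeneic array. It rose by 1.82 for isotype (adjusted p = 0.0432) and 1.52 for all allogeneic arrays (adjusted p = 0.0401), and the isotype mean of 176 ± 16.3 (SD, n = 2) was at least 1.76-fold higher than the syngeneic signal. With a syngeneic signal below the line, this probe set entered the test through allogeneic groups alone. Col6a1 was above the line on 2 arrays only (18.3 to 137) and was not tested. Col14a1, a chain that sits on fibril surfaces, read 113 and 183 on the day 0 arrays, 153 and 192 on the day 3 arrays, 98.4 and 133 on the isotype arrays, against 263 on the syngeneic array, and did not pass either (-0.70 ± 0.25, adjusted p = 0.145).

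Of the basement membrane collagens, Col4a1, Col4a2 and Col15a1 were near or below background on most arrays. Col18a1 read 185 and 194 on the day 3 arrays and 167 on the syngeneic array. It was below the line on the other arrays and is described in full below. Col4a1 and Col4a2 encode the chains that pair in the common type IV collagen network, and their genes lie head to head with annotated starts 21 bases apart. The window of Col4a2, chr8:11312555-11312854 on the plus strand (GRCm38.p6), is shown because 78 of its bases are shared with the Col4a1 window. Whether these bases act on either gene was not tested. GC boxes (3, on either strand) and the CCAAT box (1) are in capitals:
Col4a2: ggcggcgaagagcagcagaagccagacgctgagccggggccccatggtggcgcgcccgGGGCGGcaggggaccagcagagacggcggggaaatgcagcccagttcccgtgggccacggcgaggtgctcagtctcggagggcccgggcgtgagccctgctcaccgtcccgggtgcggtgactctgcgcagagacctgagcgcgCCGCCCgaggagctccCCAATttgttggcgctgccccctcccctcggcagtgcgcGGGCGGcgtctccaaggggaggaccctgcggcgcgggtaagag
Col4a1 read 54.3 and 79.0 on the day 0 arrays, 61.1 and 151 on the day 3 arrays, 58.5 and 177 on the isotype arrays, against 44.7 on the syngeneic array. Col4a2 read 149.7 and 94.2 on the day 0 arrays, 66.6 and 59.3 on the day 3 arrays, 15.8 and 76.1 on the isotype arrays, against 38.2 on the syngeneic array. In these probe sets Col4a1 was above the line on day 3 replicate 2 and isotype replicate 2, and Col4a2 on day 0 replicate 1. The second probe set of Col4a1 gave another order, with 159 and 36.0 on the day 0 arrays, 131 and 49.2 on the day 3 arrays, 23.1 and 45.4 on the isotype arrays, against 23.8 on the syngeneic array, and was above the line on the same day 0 array as Col4a2. Col15a1 passed the line on 1 day 0 array alone (139, with 6.79 to 30.8 on the other 6).

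Small leucine-rich proteoglycans coat collagen fibrils. Lum (lumican) read 91.7 and 70.9 on the day 0 arrays, 119 and 146 on the day 3 arrays, 52.5 and 73.6 on the isotype arrays, against 53.6 on the syngeneic array. Only its day 3 arrays were above the line. Bgn (biglycan) read 101 and 99.1 on the day 0 arrays, 115 and 69.4 on the day 3 arrays, 107 and 96.0 on the isotype arrays, against 57.6 on the syngeneic array, which puts its 6 allogeneic arrays above the syngeneic one by 0.45 ± 0.22 (adjusted p = 0.248). Dcn (decorin) was above the line on 1 day 0 array (108) and between 15.8 and 69.4 on the other 6, and Ogn (osteoglycin) ran from 3.67 to 61.8.

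Among elastic fibre genes, Eln (elastin) read 70.5 and 179 on the day 0 arrays, 300.1 and 235 on the day 3 arrays, 128 and 153 on the isotype arrays, against 186 on the syngeneic array. The day 3 arrays were the highest 2. Fbln1 (fibulin-1) read 138 and 123 on the day 0 arrays, 87.5 and 64.4 on the day 3 arrays, 113 and 259 on the isotype arrays, against 60.8 on the syngeneic array, and its isotype change of 1.02 ± 0.38 did not pass (adjusted p = 0.177). The value of 259 on isotype replicate 2 stands above the other 6 arrays. Fbln2 and Fbln5 were each above the line on 1 array, 143 on day 3 replicate 2 for Fbln2 and 119 on isotype replicate 2 for Fbln5. Mgp, which encodes an inhibitor of matrix calcification, ran from 7.47 to 59.8.

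Among the matricellular proteins, which modulate cell contact rather than build fibres, only Thbs1 was tested. Thbs1 encodes thrombospondin-1, an activator of latent TGF-beta that platelets also release. It read 231 and 226 on the day 0 arrays, 136 and 147 on the day 3 arrays, 98.0 and 149 on the isotype arrays, against 206 on the syngeneic array. The day 0 arrays were level with the syngeneic array, and the isotype and day 3 arrays lay below both, but the isotype change of -0.58 ± 0.24 did not pass (adjusted p = 0.215). Sparc, a collagen-binding glycoprotein, ran from 8.83 to 60.6, Sparcl1 from 5.80 to 30.3, Postn from 8.79 to 86.1 and Tnc from 8.83 to 68.0.

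Of the genes that process matrix, Mmp2 (a gelatinase that degrades type IV collagen) read 97.2 and 97.7 on the day 0 arrays, 135 and 118 on the day 3 arrays, 37.6 and 68.2 on the isotype arrays, against 95.2 on the syngeneic array. All 4 anti-ICOSL arrays were above both isotype arrays, and the syngeneic array lay just below the day 0 arrays. Mmp2 entered the test through the day 3 group alone, so its order between day 3 and isotype is not read as support. Timp3, an inhibitor that stays bound to the matrix, read 41.9 and 101 on the day 0 arrays, 134 and 173 on the day 3 arrays, 59.5 and 106 on the isotype arrays, against 56.5 on the syngeneic array. The Timp3 probe set 1419089_at, below the line throughout, read 13.1 to 57.4 on the allogeneic arrays, all lower than the 68.0 on the syngeneic array. Serpinh1, the collagen chaperone of the endoplasmic reticulum, differed between arrays of 1 group more than between groups: 143 and 14.9 on the day 0 arrays, 26.1 and 137 on the day 3 arrays, 133 and 205 on the isotype arrays, against 183 on the syngeneic array. Timp1, a secreted inhibitor induced in inflammation, was above the line on day 3 replicate 1 alone (161, with 23.2 to 68.7 on the other 6 arrays). Lox, the oxidase that crosslinks collagen and elastin, was above it on day 0 replicate 1 alone (108, with 1.89 to 49.5 on the other 6).

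No matrix gene passed the test when anti-ICOSL arrays were set against isotype arrays or against each other. Limma called 0.0% of the 15372 tested probe sets in each of these 4 comparisons. The smallest adjusted p of a matrix gene was 0.533 for day 0 against isotype, 0.391 for day 3, 0.392 for both schedules together and 0.538 for day 0 against day 3, while the smallest over all probe sets was 0.0853, 0.0971, 0.0955 and 0.0914. At an unadjusted p under 0.05 there were 4 matrix genes for day 0 (Mmp2, Col4a2, Fn1 and Thbs1), 4 for day 3 (Mmp2, Lum, Col18a1 and Fbln1), 3 for both schedules (Mmp2, Lum and Thbs1) and 6 for day 0 against day 3 (Timp3, Eln, Lum, Fn1, Col18a1 and Thbs1), out of 21 tested, beside 7.18%, 10.2%, 9.35% and 6.79% of all tested probe sets. Of these genes, Col4a2 entered the test through the day 0 group alone, and Mmp2, Lum and Timp3 through the day 3 group alone. Col18a1 entered through the day 3 and syngeneic groups and Fbln1 through the day 0 and isotype groups. Where only 1 of the compared groups reached the line, the filter fixed the direction. The counts are therefore not read as support. The 2 comparisons with isotype share the same isotype arrays.

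**Figure D5:**
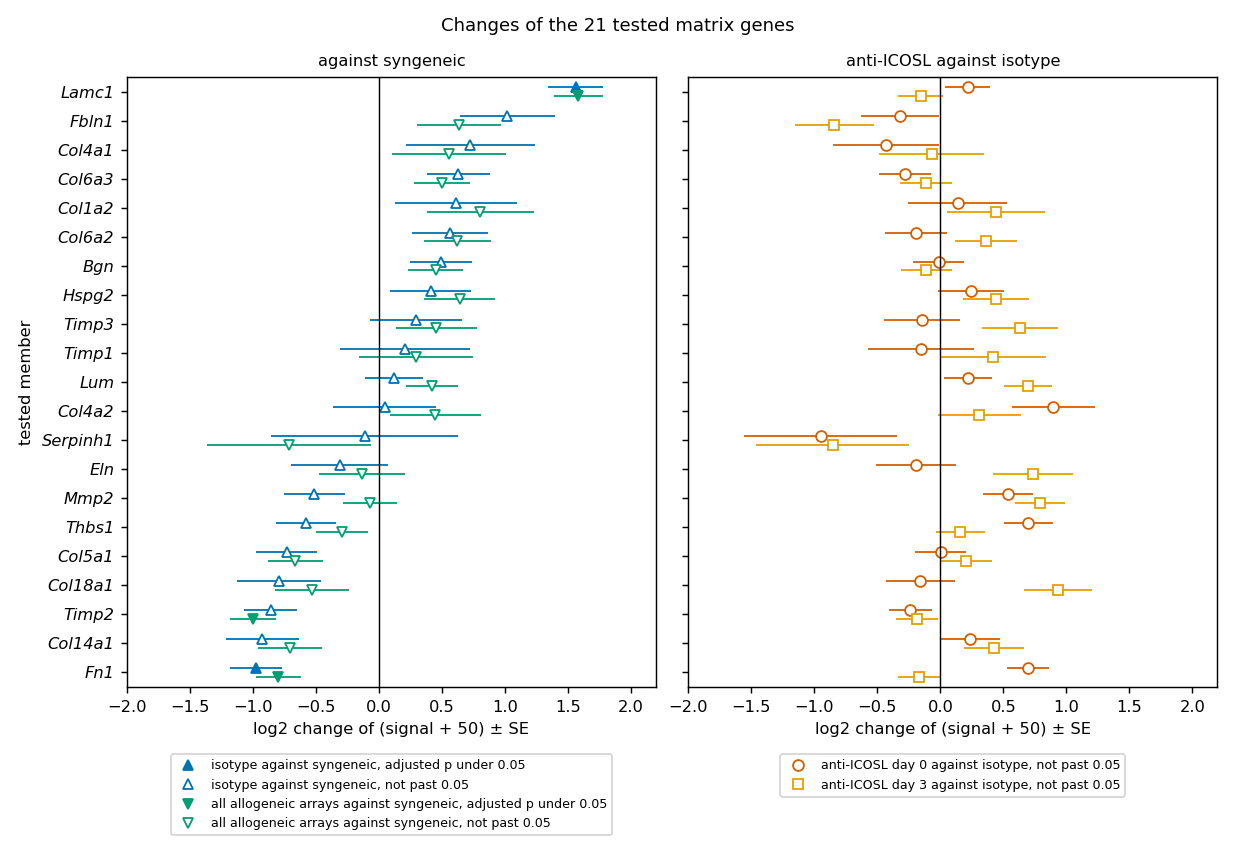
Change of each of the 21 tested genes on the log2(signal + 50) scale with its SE, against the syngeneic array (left) and of each anti-ICOSL schedule against isotype (right). Filled symbols passed an adjusted p of 0.05: Lamc1 in both comparisons on the left, Fn1 in both and Timp2 in that of all allogeneic arrays, and none on the right.

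The median change of the 42 genes was 0.22 for day 3 against isotype, beside 0.043 over all genes, -0.0061 for day 0 against isotype, beside 0.016, and -0.12 for day 0 against day 3, beside -0.023. Day 3 against isotype had 24 of 42 genes higher and 18 lower, and day 0 against isotype had 21 and 21. The day 3 median rests on 1 control array: without isotype replicate 1, on which 12 genes were above the line against 17 on isotype replicate 2, it was -0.025. Leaving out that array also moved the day 0 median to -0.15.

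By the probe set that represents each gene, Mmp2 was the tested gene with all 4 anti-ICOSL arrays above both isotype arrays, and Timp2 the tested gene with all 4 below. Each is 1 of 21, beside 10.2% of all tested probe sets with the 4 arrays above both isotype arrays and 7.94% with the 4 below. Mmp2 changed by 0.54 ± 0.20 for day 0 (adjusted p = 0.680), 0.79 ± 0.20 for day 3 (adjusted p = 0.391) and 0.66 ± 0.17 for both (adjusted p = 0.392). Both isotype arrays were below the background line. Mmp2 entered the test through the day 3 group alone, so its day 3 mean had to be above its isotype mean. This direction is not read as support. Timp2 changed by -0.24 ± 0.17 for day 0 (adjusted p = 0.824) and -0.19 ± 0.17 for day 3 (adjusted p = 0.742). Other probe sets of both genes did not share these orders. The second one of Mmp2 was above the line on day 0 replicate 2 alone (115, with 8.57 to 69.9 on the other 6 arrays), and its anti-ICOSL arrays overlapped the isotype arrays. The Timp2 probe set 1420924_at went the other way, with 189 and 120 on the day 0 arrays, 163 and 165 on the day 3 arrays, against 93.7 and 114 on the isotype arrays (0.39 for day 0, adjusted p = 0.783, and 0.48 for day 3, adjusted p = 0.510). The Timp2 probe set 1454677_at changed by 0.71 for day 0 (adjusted p = 0.786), so the probe sets of Timp2 gave no common direction against isotype.

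Fn1, Thbs1, Lamc1 and Col4a2 were higher on both day 0 arrays than on the isotype and day 3 arrays. Col4a2 entered the test through the day 0 group alone. Of all tested probe sets, 19.4% had this order against isotype and 18.6% against day 3, and the share with both was not counted. The products of Fn1 and Thbs1 are also carried in platelet granules. Against isotype, Fn1 changed by 0.70 ± 0.17 (adjusted p = 0.533) and Thbs1 by 0.70 ± 0.19 (adjusted p = 0.578), and day 0 exceeded day 3 by 0.87 ± 0.17 in Fn1 (adjusted p = 0.538) and 0.54 ± 0.19 in Thbs1 (adjusted p = 0.706). The second Thbs1 probe set read 194 and 126 on the day 0 arrays, 170.5 and 184 on the day 3 arrays, 106 and 101 on the isotype arrays, against 175 on the syngeneic array, so it did not separate day 0 from day 3. Col18a1, whose product releases endostatin, went the other way: 35.0 and 98.5 on the day 0 arrays, 185 and 194 on the day 3 arrays, 77.8 and 73.4 on the isotype arrays, against 167 on the syngeneic array. Its difference between day 0 and day 3 was -1.09 ± 0.27 (adjusted p = 0.618). Its second probe set read 26.7 and 124 on the day 0 arrays against 60.8 and 197 on the day 3 arrays, with isotype at 133 and 33.9, and the groups overlapped there.

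Intervals show what size of change these arrays could still hold. The 95% interval of a tested gene reached to either side of the estimate by a median of 0.60 for day 0 and for day 3 against isotype and of 0.52 for both schedules together, on the log2(signal + 50) scale. It lay within ±1 for 12 of 21 genes for day 0, 9 for day 3 and 14 for both. Lamc1, for example, changed by 0.22 for day 0 with an interval of -0.21 to 0.65, and Timp2 by -0.24 with an interval of -0.65 to 0.17. A change of the size of the Lamc1 rise against syngeneic (1.56) is outside both. It is not outside the intervals of all tested genes. For day 0 the interval of Col4a2 was 0.097 to 1.70, and that of Serpinh1 was -2.41 to 0.51.

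Other genes of the matrix pathway were counted in 4 lists against the syngeneic array. Over all tested probe sets, 2.49% rose and 4.12% fell for isotype, and 3.98% rose and 5.76% fell for all allogeneic arrays, and the counts of each list below stand beside these shares. In the collagen processing and remodelling list, 0 of 22 tested genes rose and 2 fell in both comparisons. Tgfbi, a matrix protein induced by TGF-beta, read 149.0 and 146 on the day 0 arrays, 160.0 and 147 on the day 3 arrays, 175 and 102 on the isotype arrays, against 1396 on the syngeneic array, and fell by 2.97 for isotype (adjusted p = 0.00353). Ecm1, a secreted glycoprotein, fell by 1.22 (adjusted p = 0.0361). Mmp9, a gelatinase of neutrophils and macrophages, changed by -1.54, which did not pass (adjusted p = 0.191). None of 8 tested other collagens and laminins rose or fell.

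In the matrix receptor list, 0 of 17 tested genes rose and 1 fell for isotype, and 1 rose and 1 fell for all allogeneic arrays. Cd44, the hyaluronan receptor, fell by 1.25 for isotype (adjusted p = 0.0202). Itgb1, the beta-1 chain of the main laminin and fibronectin receptors, read 2443 and 2488 on the day 0 arrays, 2308 and 2752 on the day 3 arrays, 2212 and 2163 on the isotype arrays, against 1198 on the syngeneic array, and rose by 0.97 over all allogeneic arrays (adjusted p = 0.0248). In the TGF-beta list, 1 of 14 tested genes rose and 2 fell for isotype, and 1 rose and 4 fell for all allogeneic arrays, beside 6.62% and 9.74% of all tested probe sets in either direction. Tgfb3, 1 of the TGF-beta ligands, rose by 1.90 for isotype (adjusted p = 0.0232), with a syngeneic signal of 2.42, below the line. The receptor gene Tgfbr1 fell by 1.43 (adjusted p = 0.0323) and the growth factor gene Pdgfc by 1.42 (adjusted p = 0.0440), and over all allogeneic arrays the receptor gene Tgfbr2 (-0.84, adjusted p = 0.0369) and the co-receptor gene Eng (-0.91, adjusted p = 0.0384) fell too. The list had a median change of -0.61 for isotype, beside 0.03 over all genes. No gene of these 4 lists passed in a comparison of anti-ICOSL arrays.

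Markers of the cells that make matrix differed by list. The fibroblast and reticular stroma list had 0 of 13 tested genes that rose and 2 that fell for isotype (Igfbp4 at -3.14, adjusted p = 0.00353, and Tnfrsf1a at -1.48, adjusted p = 0.0116), beside 4.12% of all tested probe sets that fell, with a median change of 0.17 over its 23 genes. Over all allogeneic arrays 3 of the 13 fell, the same 2 and Gsn (-0.74, adjusted p = 0.0419), beside 5.76%. The summed signal of the list was 3858 to 4248 on the day 0 arrays, 4190 to 4709 on the day 3 arrays, 3424 to 3692 on the isotype arrays, against 12076 on the syngeneic array, of which Igfbp4 alone made 8046. None of 6 tested genes of smooth muscle and pericytes, 9 of endothelium and 1 of mesothelium rose or fell. The endothelial sum was 1681 to 2070 on the day 0 arrays, 2234 to 2560 on the day 3 arrays, 1742 to 1971 on the isotype arrays, against 2259 on the syngeneic array. Both day 3 arrays lay above both isotype arrays on this sum. No matrix gene passed for day 3 against isotype, and the part of this sum in the day 3 signals of matrix genes was not tested.

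Markers of macrophages, of T cells, of megakaryocytes and platelets, and of the exocrine pancreas differed more. Of 18 macrophage markers 17 fell in both comparisons with the syngeneic array, beside 4.12% of all tested probe sets for isotype and 5.76% for all allogeneic arrays, among them Apoe (-3.91 for isotype), the iron exporter gene Slc40a1 (-3.65) and the adhesion molecule gene Vcam1 (-3.52). The other one, Maf, was 105 to 197 on the allogeneic arrays, against 77.2 on the syngeneic array, and did not pass. Of 12 T cell markers 5 rose in both comparisons, beside 2.49% and 3.98%, with Icos (3.01), Cd28 (1.75) and Cd4 (1.51) the largest for isotype. In the megakaryocyte and platelet list 2 of 9 tested genes fell in both, beside 4.12% and 5.76%, Clec1b (-2.33) and Nfe2 (-1.30). Digestive enzyme genes of the exocrine pancreas, an organ that lies against the spleen, had a summed signal of 1493 to 2170 on the day 0 arrays, 2256 to 2651 on the day 3 arrays, 3838 to 4051 on the isotype arrays, against 7264 on the syngeneic array, and 2 of 12 tested genes fell for isotype (Cela1 at -1.64 and Ctrl at -1.47), beside 4.12%. Over all allogeneic arrays 6 of the 12 fell (Cela1, Cpa1, Cpb1, Ctrl, Ctrb1 and Cela2a), beside 5.76%. The summed signal of the 42 matrix genes was 6154 to 6297 on the day 0 arrays, 5691 to 6548 on the day 3 arrays, 5019 to 6044 on the isotype arrays, against 6705 on the syngeneic array, and the part of these cell markers in it was not tested.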

How the data were processed

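Splenocyte RNA of 4 groups was measured on 7 Affymetrix arrays, with 10 µg of RNA labelled for each. The authors deposited 1 linear signal intensity per probe set, computed with MAS5 per the submitters' processing notes; a MAS5 version is not given in the sources used here. Of 22690 probe sets, 64 manufacturer controls were left out and 22626 remained; the number of arrays limits precision. Genes were named from the platform annotation through probe sets with 1 symbol.

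Log2(signal + 50) was fitted with limma 3.58.1 in R 4.3.3 over all 7 arrays (3 residual and 3.36 prior degrees of freedom), two-sided, with p-values adjusted by the Benjamini-Hochberg method over 15372 tested probe sets in each comparison. Alternatives were a pseudocount of 16 or 100, no filter or one at the 60th percentile, median centring, quantile normalization and a replicate block. Others were the compared groups alone, trend and robust options, the mean of a gene's probe sets and each allogeneic array left out. A floor at the background line was added after seeing the data. The single syngeneic array was never left out. Replicate numbers did not pair the arrays. The fit was tested on simulated data.

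All members are named, with up to 3 genes per list by absolute change for isotype against syngeneic; Itgb1, Pdgfc, Tgfbr2, Eng, Gsn, Maf, Cpa1, Cpb1, Ctrb1 and Cela2a were named after their values were seen. Members and lists were chosen with earlier results of these data known. Promoter windows are RefSeq's on GRCm38.p6.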

Additional observations from a re-analysis of the deposited data

Results flagged for a closer look

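In 3 of 42 matrix genes (7.14%) the day 0 arrays and the day 3 arrays lay on opposite sides of both isotype arrays, beside 2.29% of all 12393 genes with a single symbol. Fn1 was above isotype on both day 0 arrays (1553 and 1759) and below it on both day 3 arrays (830 and 942), while isotype read 961 and 1041, and the difference between schedules was 0.87 on the log2 scale (limma, adjusted p = 0.538). Lamc1 had 436 and 351 on the day 0 arrays, 271 and 313 on the day 3 arrays, with isotype at 320 and 341, a difference of 0.37 (adjusted p = 0.755). Lama4 had 9.93 and 7.54 on the day 0 arrays, 50.5 and 46.8 on the day 3 arrays, with isotype at 23.0 and 41.0, a difference of -0.75 with every array below the background line, and this difference was not tested. The second probe set of each of the 3 genes did not share its order, and was mostly below the line. For Fn1 it read 29.2 and 17.3 on day 0, 40.9 and 72.8 on day 3, with isotype at 8.91 and 58.8. For Lamc1 both schedules overlapped the isotype arrays. For Lama4 the day 0 arrays were again below isotype, but the day 3 arrays overlapped it.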

How the results depend on the processing

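Each comparison was repeated under 17 alternatives (16 for all allogeneic arrays), and no called change reversed its direction. Of 4152 changes that passed neither in the reported fit nor in the alternative, 313 differed in sign from the reported one.

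Isotype against syngeneic called 1017 probe sets, 1616 with a filter at the 60th percentile, 542 without a filter, 640 with the replicate block, 311 with the compared groups alone, 1786 with trend and robust options, and 409 to 708 with 1 array left out. Matrix genes that fell numbered 2 (Fn1 and Timp2) with a pseudocount of 100, the stricter filter or the trend option, 3 with the floor at the background line, and 0 with a pseudocount of 16, no filter, median centring, the replicate block, the compared groups alone or any array left out. Matrix genes that rose numbered 0 with the compared groups alone and 0 to 1 with 1 array left out.

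All allogeneic arrays against syngeneic called 1498, 837 without a filter, 946 with the replicate block, 2337 with trend and robust options and 909 to 1204 with 1 array left out. Matrix genes that fell numbered 1 with a pseudocount of 16 or median centring, 0 without a filter or with the replicate block and 0 to 1 with 1 array left out; 2 rose (Lamc1 and Col6a2) with the mean of a gene's probe sets, under which Col5a1 fell (-0.82) and Fn1 did not.

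The anti-ICOSL comparisons called 0 matrix genes under every alternative. Probe sets called under a pseudocount of 100, the stricter filter, trend and robust options and the mean of a gene's probe sets were 3, 13, 21 and 2 for day 0, 2, 8, 5 and 2 for day 3 and 1, 6, 21 and 8 for both schedules; day 0 against day 3 had 6, 7 and 12 under the first 3. The median of the 42 genes ranged from -0.15 to 0.090 for day 0 and from -0.025 to 0.36 for day 3 with 1 array left out. For day 0 against day 3 it was -0.22 with a pseudocount of 16, 0 with the floor and -0.25 to -0.066 with 1 array left out. The cause of these differences was not tested. Replicate numbers did not pair the arrays: the correlations of replicate 1 minus replicate 2 were -0.0122, 0.0746 and 0.0436 between the 3 pairs of groups.

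Low signal limits these genes: 14 of 42 were above the background line on no array, and 38 of their 78 probe sets likewise. The single syngeneic array has no error of its own, and combined RNA gives no spread between mice.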
